A study of Mus musculus with 6 samples.

Results

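Lipoproteins carry triglyceride and cholesterol in blood. Lipases anchored at the vessel wall release fatty acids from their core, and receptors on the cell surface bind what remains and take it into the cell. In the liver the receptors clear remnants of these particles, take up cholesteryl ester from high-density lipoprotein, and sort newly made particles before secretion. Set out here are 8 genes of this system, namely the receptors Vldlr, Lrp1, Scarb1 and Sort1, Mylip, whose product marks receptors for breakdown, and the lipases Lpl, Lipc and Lipg. They were found as every probe besides controls whose RefSeq accession belongs to 1 of these genes. This gave 15 probes of 56605 on the array, for 8 of the 22911 genes that could be named, and all 8 genes were among the 14170 tested.

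The livers came from 3 male LKO mice, in which Elovl6 was deleted in the liver, and from 3 male control mice, titled Flox. Elovl6 encodes the elongase that lengthens palmitate to stearate. Mice of both groups had 14 days of high-sucrose feeding and a fast of 4 hours before death. Every liver has an Agilent array to itself, measured in 1 colour, which gives n = 3 per group. Setting LKO against control asks how the liver's transcripts on this diet depend on the elongase. The promoter that drives the recombinase, the age of the mice and the alleles that the controls carry beyond their title are not given in the sources used here. Whole liver RNA was measured, so fewer cells of a type and less RNA per cell cannot be told apart.

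Signals below are processed intensities brought to a common 75th percentile over the probes of each array, and log2 changes are LKO minus control on that scale. Per array, 52.1% to 56.6% of the spots besides controls cleared background, and 0 were saturated. Elovl6 averaged 87.3 ± 20.5 in LKO livers and 8119 ± 3374 in control livers (SD, n = 3 each), so each mouse matched its label, although where its probe lies relative to the deleted part was not tested. At an adjusted p under 0.05 (limma, Benjamini-Hochberg over all genes tested) 2 genes passed, Elovl6 and the deubiquitinase gene Usp17la, which is 0.0141% of those tested. The hepatocyte markers were above background on all 6 arrays, 10 of 10. One liver stood apart in its muscle markers. On the array of control 3 all 6 striated muscle markers were above background. The summed muscle signal was 3327 there, against 106 to 132 in the LKO livers and 110 and 114 in the other controls. All 6 adipocyte markers were above background in control 3 too, as were 5 in control 1 and 4 in LKO 2. The adipocyte sums of these livers were 1700, 812 and 907. In each of the 6 livers Lep alone gave 394 to 491 of that sum. Because of the markers in control 3, results are also given without it for Vldlr, Scarb1, Lipc and Lipg. The arrays also differed in position on the slide: LKO 1 shares the first number of its position with the 3 controls, and LKO 2 and LKO 3 have another.

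None of the 8 genes passed the adjusted threshold, and the smallest adjusted p among them was 0.204 (limma), for Vldlr. At an unadjusted p under 0.05, 2 of the 8 were reached, Vldlr and Scarb1, against 11.2% of all genes tested. The LKO and control values did not overlap for 4 of the 8, against 17.4% of all genes tested. Vldlr and Lipc were lower in every LKO liver, as were 8.12% of all genes tested, and Lrp1 and Scarb1 were higher, as were 9.25%. With median scaling these shares would rest on 1862 genes lower and 613 higher, against 1150 and 1311 here. The counts of 2 and 4 include Vldlr, which was tested through its control arrays alone. With probes required above background on all 6 arrays, 7 of the genes were tested, without Vldlr. Of these 1 had an unadjusted p under 0.05, against 1500 of all 13664 genes tested. In 3 the groups did not overlap, against 17.1% of all genes tested. The median log2 change was -0.12 over the 8 genes and 0.02 over all genes tested. An exact permutation test of 3 mice against 3 cannot go below p = 0.1, which is what each of the 4 genes gave.

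**Figure D1:**
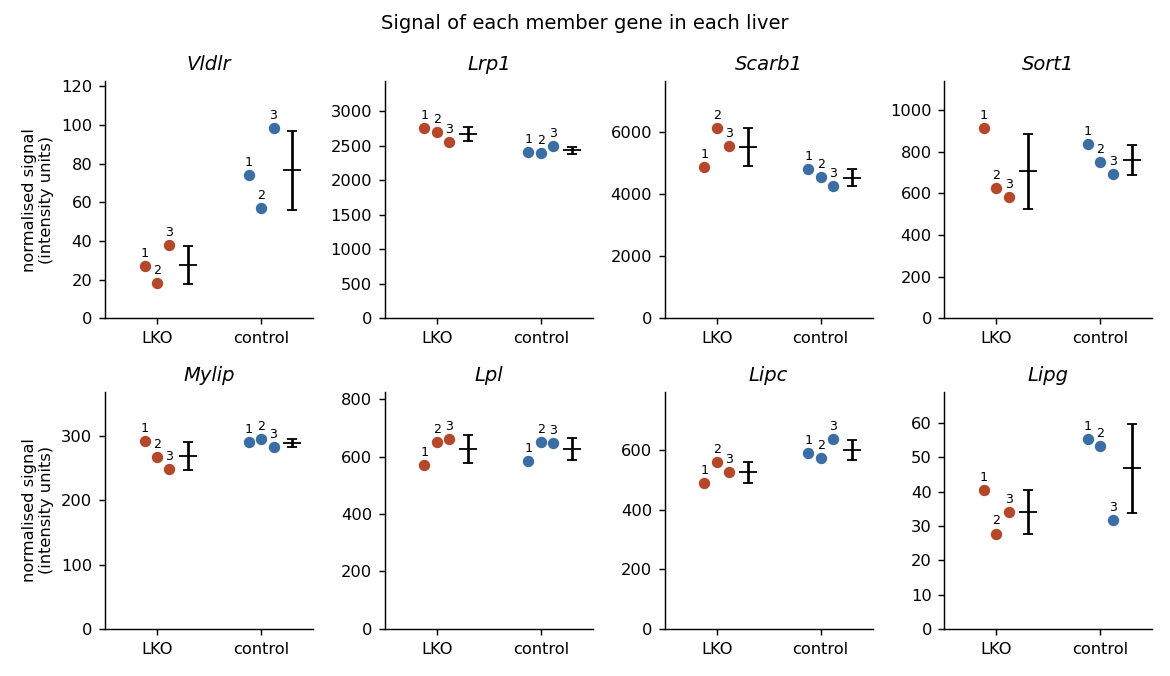
Normalised signal (intensity units, linear axes from 0) of the 8 genes in each liver, with mouse numbers above the points; black bars are the mean ± SD of 3 mice. The Vldlr points lie between 18.1 and 37.9 in LKO livers and between 57.2 and 98.2 in control livers, while those of Lpl overlap.

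The windows before the starts of 4 of the 8 genes, Vldlr, Lrp1, Lipc and Mylip, were read from a RefSeq table of the build GRCm38.p6, 6 windows in all. Those of the other genes, Lipg among them, were not read, so their letters were not tested. The 250 bases before each start are printed for Vldlr, Lrp1 and Lipc, because these are the genes with a window read whose groups did not overlap. Capitals mark matches, on either strand, to a CCAAT box, with the letters of its name, a GC box, spelled GGGCGG, a nuclear receptor half-site, spelled AGGTCA, the TATA box, spelled TATAAA, or the E-box, spelled CACGTG. The 2 Vldlr windows are chr19:27216234-27216483 and chr19:27216770-27217019 on the plus strand. The Lrp1 window is chr10:127621149-127621398, and those of Lipc are chr9:70952222-70952471 and chr9:70934809-70935058, all on the minus strand.
Vldlr, the first start: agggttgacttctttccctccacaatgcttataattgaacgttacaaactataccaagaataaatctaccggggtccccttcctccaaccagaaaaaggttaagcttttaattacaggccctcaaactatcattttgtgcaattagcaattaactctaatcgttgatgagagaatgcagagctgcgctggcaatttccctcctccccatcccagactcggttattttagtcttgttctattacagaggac
Vldlr, the second start: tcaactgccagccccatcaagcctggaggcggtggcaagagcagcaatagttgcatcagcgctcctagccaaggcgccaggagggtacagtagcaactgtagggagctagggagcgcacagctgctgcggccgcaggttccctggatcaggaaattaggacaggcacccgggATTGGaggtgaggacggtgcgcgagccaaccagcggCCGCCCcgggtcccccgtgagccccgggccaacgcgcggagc
Lrp1: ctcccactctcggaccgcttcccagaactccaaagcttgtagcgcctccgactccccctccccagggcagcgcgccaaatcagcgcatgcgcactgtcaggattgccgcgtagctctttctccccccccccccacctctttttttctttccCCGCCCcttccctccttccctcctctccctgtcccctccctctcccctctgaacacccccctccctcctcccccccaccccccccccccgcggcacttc
Lipc, the first start: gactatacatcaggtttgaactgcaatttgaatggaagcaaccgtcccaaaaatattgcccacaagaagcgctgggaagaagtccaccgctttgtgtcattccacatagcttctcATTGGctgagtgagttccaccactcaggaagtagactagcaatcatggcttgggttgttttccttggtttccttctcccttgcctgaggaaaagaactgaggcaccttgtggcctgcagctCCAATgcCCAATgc
Lipc, the second start: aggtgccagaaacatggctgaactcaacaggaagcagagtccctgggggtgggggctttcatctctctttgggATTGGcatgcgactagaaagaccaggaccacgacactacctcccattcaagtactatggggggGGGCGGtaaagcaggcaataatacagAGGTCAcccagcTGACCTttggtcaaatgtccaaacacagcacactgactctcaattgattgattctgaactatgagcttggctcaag

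The windows of these genes differed in base composition. The first Vldlr window was 41.6% G and C with 5 CpG dinucleotides and no match to the letters searched. The second was 66.4% G and C with 18 CpG, a CCAAT box and a GC box. The Lrp1 window was 67.2% G and C, with a GC box and long runs of pyrimidines. The first Lipc window, 48.4% G and C, held 3 CCAAT matches, and the second, 50.8%, held a CCAAT box, a GC box and 2 half-sites. The median over 32851 windows was 52.4% G and C. Of those windows, 33.8% held a CCAAT box, 32.7% a GC box, 14.0% a half-site, 12.4% a TATA box and 6.02% an E-box. Longer motifs were searched as well, direct repeats of the half-site letters spaced by 1 base (in 0.0335% of windows) or by 4 bases (in 0.0152%), and a sterol element (TCACNCCAC, in 1.05%), and none of these stood in the windows of the 4 genes. A direct repeat of either spacing is also counted as half-sites. A match is a description of letters, not a site.

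Vldlr encodes the very-low-density lipoprotein receptor, which binds triglyceride-rich particles and is known for high levels in muscle, heart and fat and low levels in healthy liver. Its signal was 27.2, 18.1 and 37.9 in LKO livers, against 74.0, 57.2 and 98.2 in control livers. Every LKO value lay below every control value, and the probe cleared background on 2 LKO arrays, LKO 2 being the exception, and on all 3 control arrays. The mean was 27.7 ± 9.91 in LKO livers and 76.5 ± 20.6 in control livers (SD, n = 3 each). The change was 2.82-fold lower, a log2 change of -1.49 ± 0.30 (SE, 95% interval -2.22 to -0.77), with limma adjusted p = 0.204. Vldlr was tested through its control arrays, all above background, so its place among the genes tested supports nothing, and the fold and interval include a value of LKO 2 (18.1) that had not cleared background. Without LKO 2 the log2 change was -1.22 (limma adjusted p = 0.421).

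The size of the Vldlr difference depended on the signal used. With normexp and an offset of 50, run on the median foreground and background signals in place of the processed signal, the log2 change was -0.52 (limma adjusted p = 0.183). That setting differs in signal summary, background correction and added constant at once, and their parts were not tested separately. Without control 3, the liver with the high muscle markers and the highest Vldlr signal, the log2 change was -1.30 (limma adjusted p = 0.406). Within the 4 arrays that share the first number of the slide position, which sets LKO 1 against the controls, it was -1.46 (limma adjusted p = 0.908). The other probe of Vldlr was well above background on 1 array, control 1, at 37.6. On the other 5 it read 4.61 to 6.99 in LKO livers and 3.68 and 8.50 in control livers and gave no comparison.

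**Figure D2:**
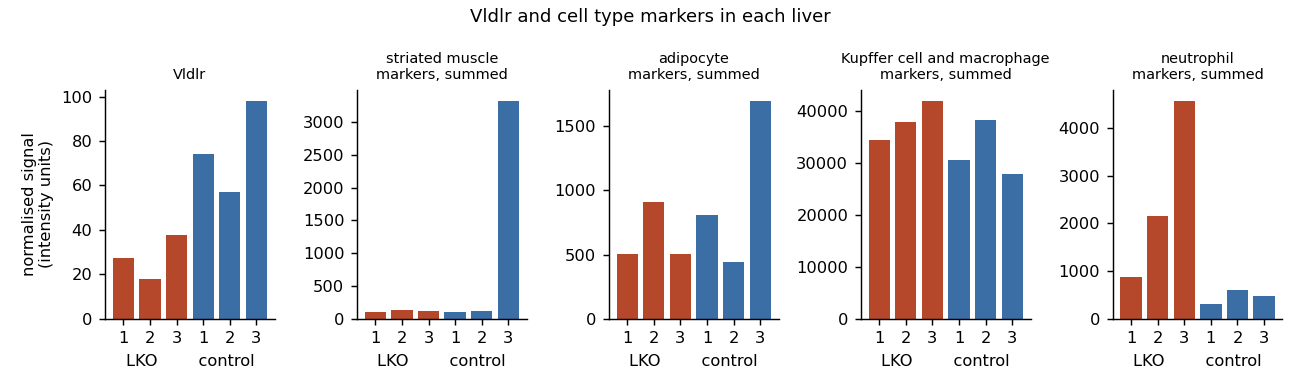
Normalised signal (intensity units, linear axes from 0) of Vldlr and the summed signal of 4 marker lists, 1 bar per liver, LKO left and control right. The muscle sum stands out in control 3 (3327), and the neutrophil sum is higher in all 3 LKO livers (870 to 4577) than in control livers (307 to 596).

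Genes whose pattern over the 6 arrays was most like that of Vldlr were sought by the smallest root mean square difference of log2 values centred per gene. The nearest were Nfe2, which encodes a transcription factor of blood cell precursors (0.25 log2 units), Sulf1, a heparan sulfate sulfatase (0.28), and Rdh11, a retinol dehydrogenase (0.28). The distance of Vldlr from a flat profile was 0.84. Rdh11 read 1302, 994 and 1347 in LKO livers, against 2804, 2663 and 3028 in control livers. Nfe2 read 69.2, 43.3 and 63.1 in LKO livers, against 158, 109 and 159 in control livers. These genes were chosen for likeness to Vldlr on the same arrays, so their lower LKO values are no separate result. The pattern matched includes the LKO 2 value of Vldlr, which had not cleared background. None of the 3 genes passed (limma adjusted p of 0.105 for Rdh11, 0.166 for Nfe2 and 0.352 for Sulf1). The Sulf1 probe cleared background on a single LKO array (1 of 3), so Sulf1 was tested through its control arrays.

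Lrp1 encodes a large endocytic receptor of the same family that clears chylomicron remnants and many other ligands. Its signal was 2749, 2705 and 2548 in LKO livers, against 2409, 2398 and 2491 in control livers. All LKO values lay above the controls, with LKO 3 and control 3 nearest to each other. The log2 change was 0.13 ± 0.08 (SE, 95% interval -0.05 to 0.32), which did not pass (limma adjusted p = 0.581). With quantile normalization, median scaling or the authors' value table the groups overlapped.

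Scarb1 encodes the scavenger receptor that takes up cholesteryl ester from high-density lipoprotein. The probe for NM_016741 read 4882, 6112 and 5546 in LKO livers, against 4809, 4535 and 4252 in control livers. The groups did not overlap, but LKO 1 and control 1 were close. The mean was 5513 ± 616 in LKO livers and 4532 ± 279 in control livers (SD, n = 3 each), a log2 change of 0.28 ± 0.11 (SE, 95% interval 0.02 to 0.54, limma adjusted p = 0.423). The probe for another transcript, NM_001205083, gave 264, 344 and 325 in LKO livers, against 279, 298 and 261 in control livers, with overlapping groups and a log2 change of 0.15 ± 0.13 (SE). Within the arrays sharing the first number of the slide position the log2 change of the gene was 0.11. With median scaling, or with the mean of both probes, the groups overlapped.

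Sort1 encodes sortilin, a sorting receptor of the Golgi that takes part in the release and breakdown of lipoprotein particles. Its brightest probe read 911, 624 and 582 in LKO livers, against 836, 750 and 694 in control livers. LKO 1 was the highest of all 6 livers and the other LKO livers the lowest. The log2 change was -0.13 ± 0.18 (SE, 95% interval -0.57 to 0.30, limma adjusted p = 0.827). Set against the controls alone, as within the shared slide position, LKO 1 was 0.27 higher on the log2 scale, whereas without LKO 1 the change was -0.33 (limma adjusted p = 0.307). LKO 1 differs from LKO 2 and LKO 3 in mouse and in slide position, which cannot be told apart. A second probe of the same transcript, NM_001271599, ranged from 301 to 327 in LKO livers and from 268 to 353 in control livers, with a log2 change of 0.03 ± 0.12 (SE). The probe for NM_019972 was above background on 1 LKO array and 2 control arrays and was not tested.

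Mylip encodes a ubiquitin ligase, induced by the sterol-sensing nuclear receptors LXR, that marks receptors of the Vldlr family for lysosomal breakdown. Its signal was 292, 268 and 249 in LKO livers, against 291, 295 and 283 in control livers. LKO 1 lay among the controls and the other LKO livers lay below them. The mean was 270 ± 21.7 in LKO livers and 290 ± 6.25 in control livers (SD, n = 3 each), and the log2 change was -0.11 ± 0.09 (SE, 95% interval -0.32 to 0.11, limma adjusted p = 0.699). Among the LKO livers Mylip was lowest in LKO 3 and Vldlr in LKO 2, where the Vldlr probe had not cleared background. A link between the 2 transcripts was not tested. The arrays measure transcripts, so receptor protein, on which this ligase acts, was not measured.

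**Figure D3:**
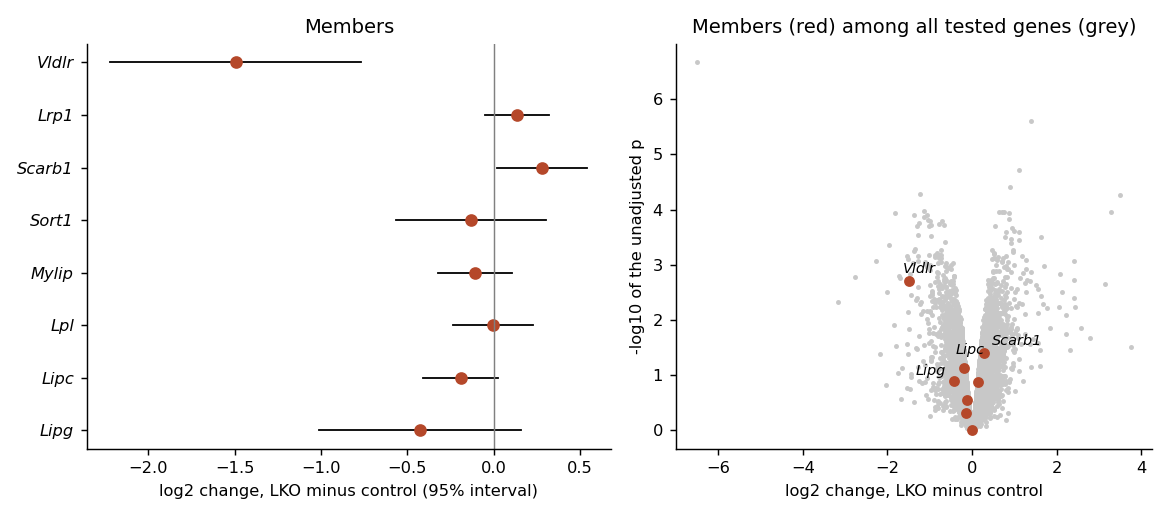
Left, log2 change (LKO minus control) of the 8 genes with 95% intervals from limma. Right, the same changes against -log10 of the unadjusted p among all 14170 genes tested. The interval of Vldlr runs from -2.22 to -0.77 and that of Scarb1 from 0.02 to 0.54, while those of the other 6 genes include 0.

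The lipases were close to the control level or below it. Lipc encodes hepatic lipase, which the hepatocyte secretes and which acts on remnants and high-density lipoprotein. Its signal was 491, 561 and 525 in LKO livers, against 589, 575 and 637 in control livers. The groups did not overlap, with LKO 2 and control 2 nearest to each other. The mean was 526 ± 34.6 in LKO livers and 600.4 ± 32.6 in control livers (SD, n = 3 each). This was 1.14-fold lower, a log2 change of -0.19 ± 0.09 (SE, 95% interval -0.41 to 0.02), and did not pass (limma adjusted p = 0.491). The groups stayed apart under all other normalizations run. Without control 3, the highest control, the log2 change was -0.15 (limma adjusted p = 0.739).

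Lpl encodes lipoprotein lipase, which fat, muscle and macrophages make for the capillary wall and which adult hepatocytes make little of. Its brightest probe read 569, 649 and 660.5 in LKO livers, against 583, 649.95 and 648 in control livers. The groups overlapped fully, and in each of them mouse 1 was the lowest. The fold change was 0.998, with an SE of 0.10 on the log2 scale, and its 95% interval, -0.24 to 0.23, allows a level between 0.849-fold and 1.17-fold of control (limma adjusted p = 0.993). The other probes gave log2 changes of 0.17 ± 0.14 and 0.01 ± 0.22 (SE). Control 3, in which all muscle and all adipocyte markers were above background, read 648 on the brightest probe, just under control 2. On the dimmest probe control 3 was the highest control, at 31.9, and LKO 2 the highest liver, at 34.2. On the remaining probe LKO 3 was the highest liver, at 150. The part of muscle or fat cells in the Lpl signal was not tested. All 12 markers of macrophages, Kupffer cells among them, read higher in LKO livers, with a median log2 change of 0.23 and 0 past the threshold, with sums of 34368 to 42024 in LKO livers and 27872 to 38196 in control livers.

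Lipg encodes endothelial lipase, a phospholipase that acts on high-density lipoprotein. Its brighter probe read 40.6, 27.8 and 34.0 in LKO livers, against 55.3, 53.3 and 31.7 in control livers. The groups overlapped because control 3 lay among the LKO livers. The log2 change was -0.43 ± 0.25 (SE, 95% interval -1.01 to 0.16, limma adjusted p = 0.573). Without control 3 the log2 change was -0.69 (limma adjusted p = 0.421), and the groups did not overlap, as for 26% of all genes tested without that mouse. With normexp on the median signals it was -0.14. The other probe was not well above background on any array, at 3.53 to 4.06 in LKO livers and 8.32 to 10.7 in control livers, so no fold is given. The 10 endothelial markers had a median log2 change of -0.01, with sums of 15688 to 16737 in LKO livers and 15090 to 15844 in control livers.

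**Figure D4:**
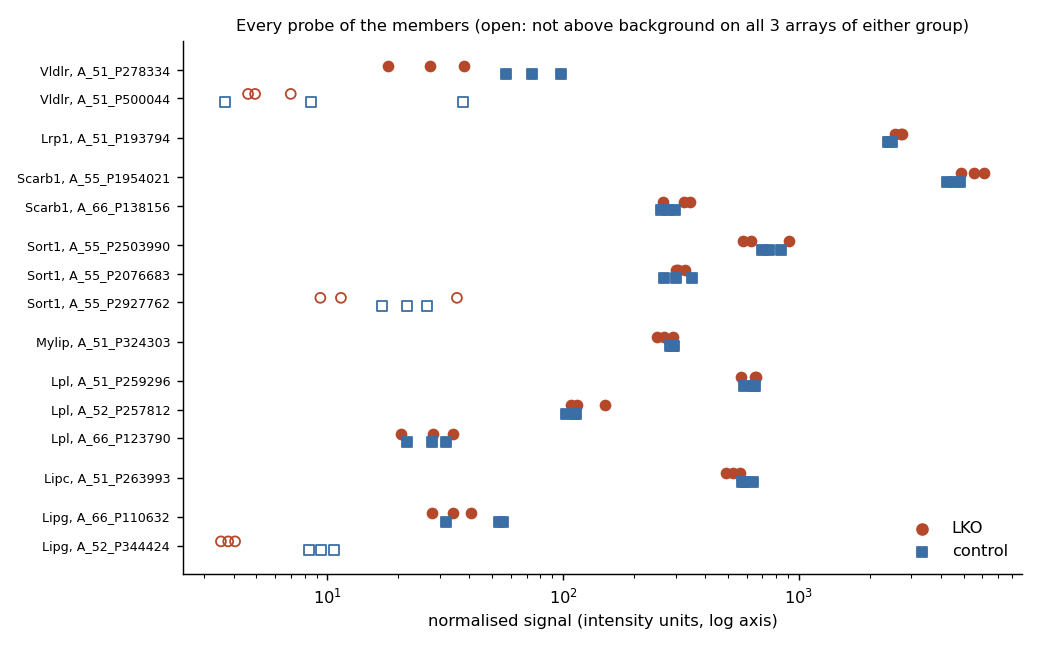
Normalised signal (intensity units, log axis) of all 15 probes in LKO livers (red circles) and control livers (blue squares); open symbols are the 3 probes that were not well above background on all arrays of either group. Levels of different probes cannot be set against each other, and the points to compare are those within a row.

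The genes that act with these proteins were looked at in 4 lists, and 0 of their 57 tested entries passed the adjusted threshold. Genes named from a list are those with its smallest p, so groups that do not overlap are no separate result in them. Over all genes tested 17.4% had such groups. Of 16 lipase cofactors, inhibitors and related plasma and lysosomal enzymes, all tested, 10 had higher and 6 lower values (median log2 change 0.04). Pltp, which transfers phospholipid between lipoproteins, read 652, 595 and 868 in LKO livers, against 2667, 1725 and 1129 in control livers, 2.49-fold lower with groups apart (limma adjusted p = 0.256). Lipa, the lysosomal acid lipase, was 1.27-fold lower (log2 change -0.35 ± 0.10, SE, limma adjusted p = 0.306). Lcat, which esterifies cholesterol in plasma, was 1.24-fold higher (0.31 ± 0.11, SE, limma adjusted p = 0.389). Both had groups that did not overlap.

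Of 19 other receptors of these families 15 were tested, and 10 had higher and 5 lower values (median log2 change 0.05). Cd36, a fatty acid and scavenger receptor related to Scarb1, read 214, 229 and 238 in LKO livers, against 363, 285 and 387 in control livers, 1.51-fold lower (limma adjusted p = 0.229). Sdc1, a heparan sulfate proteoglycan that binds remnants, was 1.36-fold higher (limma adjusted p = 0.314), and Lsr, the lipolysis-stimulated lipoprotein receptor, 1.24-fold higher (limma adjusted p = 0.419). In all 3 the groups did not overlap. Lrp8, Sorcs3 and Olr1 were not above background on any array.

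Of 17 chaperones, adaptors and degradation factors 16 were tested, with 11 higher and 5 lower values (median log2 change 0.05). Usp2, a deubiquitinase, read 82.2, 77.2 and 211 in LKO livers, against 44.3, 58.2 and 61.5 in control livers, 2.04-fold higher (limma adjusted p = 0.406). LKO 3 stood well above the other LKO livers. Rnf130, a ubiquitin ligase, was 1.13-fold higher with groups apart, and Lrpap1, the chaperone of Lrp1 and Vldlr in the secretory pathway, 1.15-fold lower with overlapping groups. Of 10 LXR targets and receptors, the list to which Mylip belongs by regulation, 4 had higher and 6 lower values (median log2 change -0.05). Scd1, also a target of SREBP-1c, was 2.02-fold lower (limma adjusted p = 0.166), Abcg5, a sterol exporter, 1.16-fold higher (limma adjusted p = 0.397), and Abcg1, a cholesterol exporter, 1.20-fold higher (limma adjusted p = 0.548).

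**Figure D5:**
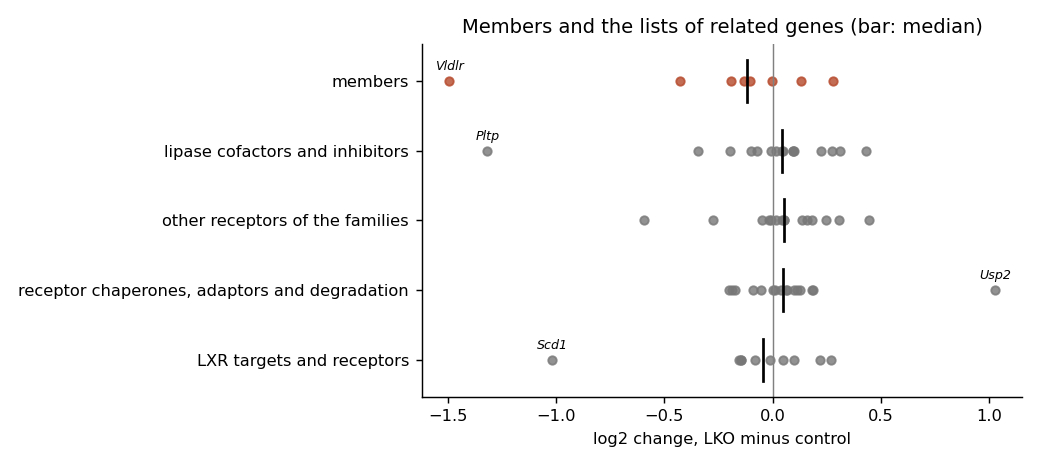
Log2 change (LKO minus control) of the 8 genes and of the tested genes in the 4 lists, 1 point per gene, with a black bar at the median. The medians lie between -0.12 and 0.05, and Vldlr, Pltp, Scd1 and Usp2 lie more than 0.9 from 0.

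Markers of other liver cells were measured beside these, and 0 of them passed. The 3 tested neutrophil markers were higher in every LKO liver than in any control, as were 9.25% of all genes tested. S100a8 was 5.43-fold and Retnlg 2.37-fold higher, and Ngp was not above background on any array. Lyz2 and Marco of the macrophage list were 1.39-fold and 2.40-fold higher. The stellate list had a median log2 change of 0.01, with Hgf 1.45-fold higher and Des 1.67-fold lower. Among bile duct markers Krt19 was 1.60-fold lower and Spp1 1.27-fold higher, and among hepatocyte markers Ambp was 1.18-fold and Fgb 1.30-fold higher. Of the 10 hepatocyte markers 9 read higher and 1 lower in LKO livers (median log2 change 0.09). Their sums were 1.483e+06 to 1.560e+06 in LKO livers and 1.420e+06 to 1.445e+06 in control livers. Among endothelial markers Tie1 was 1.12-fold and Flt4 1.20-fold lower, Flt4 with overlapping groups. The endothelial list as a whole was near the control level: 4 of its 10 genes rose, 6 fell, and the median was -0.01 on the log2 scale. The adipocyte sum was 502 to 907 in LKO livers and 445 to 1700 in control livers. Of its members Lep was 1.07-fold higher and Cfd 1.98-fold lower, both with overlapping groups. Of the muscle markers Mylpf was 1.84-fold and Tnnc2 3.18-fold lower, also with overlapping groups, and both folds rest on control 3. Mylpf read 204 in control 3 against 37.6 and 48.6 in the other controls, and Tnnc2 1897 against 43.7 and 44.4. The part of these cells in the differences of the 8 genes was not tested.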

How the data were processed

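Each deposited array file holds 1 liver. Per the file headers and the submitters' processing notes, the deposited signal intensities (1 colour, Cy3, already corrected for background) come from Agilent Feature Extraction 11.5.1.1. The authors' value table equals that intensity times 1 constant per array (2.08 to 2.48); it is linear and not centred, its medians were 63.7, 59.1 and 62.2 in LKO and 55.3, 62.9 and 61.5 in controls, and the sources used here do not say how the constants were chosen. All 6 of its columns belong to a sample.

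Control spots and 64 to 111 outlier spots per array were left out, and log2 intensities of a probe's spots were averaged and set against the array's 75th percentile over probes (185 to 212 units). Signals are printed on a common scale of 198 units. Accessions were matched without versions to RefSeq (GRCm38.p6): 32994 probes (58.3%) had 1 symbol, 0 had several and 23611 had none. The array headers name an older build, so coordinates are printed only for RefSeq's windows. A gene was represented by its brightest probe and tested if that probe cleared background on each of the 3 arrays of either group, given at least 2 values in both groups. Groups were compared, two-sided, with lmFit and eBayes (limma 3.58.1, R 4.3.3) over all genes, without a block. The other probes were fitted one by one, and that fit was added after seeing the data. The procedure was tested on simulated data.

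The 8 genes, the lists and their markers were chosen with earlier results of these data known. The 3 genes with the smallest p of each list, 2 for markers, are named, as are the 8 members, Elovl6 and the 3 genes most like the member with the smallest p, leaving out predicted names. The arrays share 1 slide and 1 scan, and their number limits the precision. Alternatives covered normalization, background correction, the filter, the probe, the variance model, the replicate number, the slide position and each mouse left out.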

Additional observations from a re-analysis of the deposited data

How the results depend on the processing

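None of the 8 genes passed the adjusted threshold under any alternative run, and 121 of 127 values kept their direction. Part of these could not turn. A change of filter, variance model or replicate block leaves the log2 change as it is. So does the mean of the probes for a gene with 1 usable probe. The exceptions were near 0 or rest on LKO 1: Lpl was at 0.060 with the mean of its probes and between -0.054 and 0.064 without a mouse in turn, and with the slide position as a covariate Mylip was at 0.0125 and Sort1 at 0.27. Vldlr lay between -1.56 and -0.52 over the other settings and between -1.75 and -1.22 without a mouse in turn, its adjusted p ranged from 0.0907 to 0.908 (limma), and it was not tested where a probe had to be above background on all 6 arrays. The count of members whose groups did not overlap ranged from 3 to 6, the highest without LKO replicate 1, where 32.7% of all genes tested did not overlap, against 17.4% with all mice. The count of all genes called was 2 and became 16 with normexp, 12 with trend and robust eBayes, 1 without a filter, 1 with the stricter filter, 1 with the slide position, 6 with every probe on its own (added after seeing the data), and 1 to 15 without a mouse in turn, 15 without LKO replicate 1. The replicate numbers are shared by the groups. Deviations of same-numbered mice correlated at 0.04, -0.05 and -0.07, and those of differently numbered mice at -0.11 to 0.16. Whether the numbers stand for pairs cannot be told from so few mice. With the replicate block 3 genes were called, no member changed its call, and the adjusted p of Vldlr was 0.0907. Nearness to background limits Vldlr, Lipg and the 3 untested probes.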
